A study of Homo sapiens with 6 samples.

Results

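Antisense lncRNAs are long RNAs without a known protein product that are read from the strand opposite to another gene, and most carry that gene's symbol followed by -AS and a number. They were examined here in K562, an erythroid leukemia cell line, with and without induction of the poly(C)-binding protein PCBP1. The genes were chosen by symbol and by level: lncRNA genes of GENCODE 44 whose symbol ends in -AS plus a number and whose estimated count averaged at least 200 over the 6 libraries. Of 62252 genes summed, 1814 carry such a symbol and 239 reached that level, among 1260 lncRNA genes that did. PCBP1-AS1 and DLGAP1-AS2, which reached it, and BHLHE40-AS1, which did not, were left out by name, and 237 remained. Each change was set beside that of the sense gene, the gene named before -AS.

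Messenger RNA was sequenced from K562 cells in which a Flag-PCBP1 cassette under a tet-inducible promoter had been placed in the AAVS1 locus. The line was derived from a single-cell clone with a landing site and was then selected with puromycin as a pool. The 3 libraries made without doxycycline (−Dox, titled as controls) were set against 3 made with it (+Dox, titled as PCBP1 overexpression). Both groups carry the cassette, and the antibiotic and the induced protein are confounded between them. The summed estimated counts were 84177316, 80104627 and 74766040 in −Dox replicates 1 to 3, and 70905656, 82263502 and 82449808 in +Dox replicates 1 to 3. PCBP1 itself was at 248, 270 and 267 CPM (counts scaled to the library total with TMM factors) in −Dox and at 1030, 936 and 1037 CPM in +Dox. The groups did not overlap, and the log2 fold change (log2FC) was 1.94 ± 0.055 (SE, adjusted p = 5.22e-10 by edgeR). Nothing in the labels says that the replicates came from cultures grown apart, so the p-values measure the spread between these libraries.

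All 12 red cell and globin markers of K562 were detected, from EPOR at 10.8 TPM (a level scaled for transcript length and library size) to HBG2 at 9894 TPM. Of 14 markers of other cell types, 9 were under 1 TPM and MS4A1 was listed at 0 in all 6 libraries. The most abundant of the others was LYZ, at 95.0 TPM. The 14 summed to 187 to 219 TPM in −Dox and 146 to 182 TPM in +Dox, and LYZ fell by 0.47 on the log2 scale (adjusted p = 0.00837 by edgeR). Among the K562 markers EPOR (log2FC 0.97) rose and HBZ (−0.40) and TFRC (−0.34) fell. The part of these shifts in the antisense values was not tested.

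An antisense RNA can lie in several ways against its sense gene. Where both start near each other and run apart or across each other, 1 promoter region can serve both, and where they meet at their ends or one lies inside the other, the transcripts can be complementary. Antisense transcription is known to affect its sense gene in either direction, through chromatin, through the passage of the polymerase or through pairing of the RNAs, and many antisense RNAs have no known function. PCBP1 binds cytosine-rich stretches of RNA with its KH domains and takes part in splicing, stability and translation of its targets.

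By the annotation, 103 of the 237 overlapped the sense gene head to head, with both 5′ ends inside the shared stretch. Another 16 lay head to head without overlap, 51 overlapped tail to tail, 38 lay inside the sense gene and 24 had the sense gene inside them. The symbol misled in a few: PYDC2-AS1 and FAM131B-AS2 lie on the same strand as the gene they are named for, and TRG-AS1, ZBED9-AS1 and HOXB-AS1 have no gene of the remaining symbol in this annotation. The sense gene was protein-coding for 232. For 14 more genes the sense gene had a mean count of 10 or less, among them PENK, ROR1 and CLEC12A, which left 220 pairs with both genes tested. BCAN-AS1 and BCAN-AS2 share a sense gene, so the 220 pairs hold 219 sense genes. In 169 pairs some exon bases of the antisense gene lie under sense exons. The strand setting of the quantification is not stated, and reads from such bases may not be separable.

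Promoter windows are shown for genes on which the comparisons turn: the antisense gene with the smallest p (STEAP1B-AS1), a pair in which both genes fell (STXBP5), one in which both rose (PITX1-AS1) and one in which the antisense gene rose and WAC did not pass the test. Each runs from 250 bases before to 50 bases after the RefSeq start (GRCh38.p14), 5′ to 3′ on the gene's own strand. Capitals mark matches on either strand to the CCAAT box, to the GC box (letters GGGCGG), to a GATA motif (letters AGATAA) and to an AP-1 motif (letters TGACTCA). The pair of GC boxes in PITX1-AS1 that run together overlap each other.
STEAP1B-AS1, chr7:22563087-22563386, plus strand: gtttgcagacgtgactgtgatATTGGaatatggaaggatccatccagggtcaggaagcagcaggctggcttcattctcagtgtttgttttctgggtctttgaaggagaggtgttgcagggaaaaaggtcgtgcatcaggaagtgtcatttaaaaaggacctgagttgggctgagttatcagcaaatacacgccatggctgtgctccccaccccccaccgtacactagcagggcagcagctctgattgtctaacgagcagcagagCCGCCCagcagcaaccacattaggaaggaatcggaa
STXBP5-AS1, chr6:147204565-147204864, minus strand: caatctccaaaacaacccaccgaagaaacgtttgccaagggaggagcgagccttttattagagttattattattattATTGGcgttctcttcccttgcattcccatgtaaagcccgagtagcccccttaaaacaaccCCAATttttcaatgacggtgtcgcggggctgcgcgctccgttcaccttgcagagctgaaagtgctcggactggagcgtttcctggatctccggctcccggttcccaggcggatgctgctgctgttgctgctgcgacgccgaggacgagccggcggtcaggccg
STXBP5, chr6:147204167-147204466, plus strand: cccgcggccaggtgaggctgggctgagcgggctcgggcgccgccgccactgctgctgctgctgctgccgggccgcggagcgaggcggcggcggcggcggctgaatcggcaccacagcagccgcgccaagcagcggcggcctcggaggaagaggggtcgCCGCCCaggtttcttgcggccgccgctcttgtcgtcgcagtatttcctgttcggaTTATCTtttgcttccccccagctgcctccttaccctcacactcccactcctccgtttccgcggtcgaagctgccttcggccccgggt
PITX1-AS1, chr5:135033024-135033323, plus strand: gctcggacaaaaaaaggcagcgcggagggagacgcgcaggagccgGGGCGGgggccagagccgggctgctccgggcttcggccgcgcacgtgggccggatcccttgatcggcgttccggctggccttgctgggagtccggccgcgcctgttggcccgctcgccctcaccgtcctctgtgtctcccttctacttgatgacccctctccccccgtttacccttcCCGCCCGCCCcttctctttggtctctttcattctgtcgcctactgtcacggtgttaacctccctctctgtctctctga
WAC-AS1, chr10:28532305-28532604, minus strand: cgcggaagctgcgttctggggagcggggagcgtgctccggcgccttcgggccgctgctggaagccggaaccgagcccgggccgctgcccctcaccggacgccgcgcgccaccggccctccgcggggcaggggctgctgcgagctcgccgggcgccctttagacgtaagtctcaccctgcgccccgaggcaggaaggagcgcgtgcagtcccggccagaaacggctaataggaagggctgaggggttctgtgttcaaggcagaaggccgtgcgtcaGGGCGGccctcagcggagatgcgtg
WAC, chr10:28532529-28532828, plus strand: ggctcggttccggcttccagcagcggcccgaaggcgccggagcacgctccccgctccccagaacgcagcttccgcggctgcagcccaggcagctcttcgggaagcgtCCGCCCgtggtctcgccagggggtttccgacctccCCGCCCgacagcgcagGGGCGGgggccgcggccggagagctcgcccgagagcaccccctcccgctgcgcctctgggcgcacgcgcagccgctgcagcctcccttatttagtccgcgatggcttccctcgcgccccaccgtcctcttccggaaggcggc

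The 2 WAC windows share 76 bases, read from opposite strands, and the RefSeq starts lie 425 bases apart. The starts of STXBP5 and STXBP5-AS1 are 197 bases apart, with the antisense start inside the sense gene. Of the 237 antisense genes, 179 matched RefSeq promoter entries by symbol, with 213 windows in all. GGGCGG on either strand was in 61.0% of these windows and in 45.0% of all 35116 windows, CCAAT in 34.3% and 34.6%, AGATAA in 10.3% of each set, and TGACTCA in 3.29% and 4.95%. Among the 21 windows of the antisense genes with a changed level, 11 held GGGCGG, 6 held CCAAT, none held AGATAA and 2 held TGACTCA. A match is a description of the letters and not of binding.

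The share of antisense lncRNAs that changed with Dox was below that of all genes at the same level. Of the 237, 25 (10.5%) had an adjusted p under 0.05 by edgeR, 19 higher and 6 lower in +Dox. Over all 21045 genes tested the share was 15.8%, of which 8.16% were higher and 7.68% lower. It was 24.4% of the 12118 genes with a mean of at least 200 and 16.7% of the 1260 lncRNA genes at that level. Without a limit on p, 142 of the 237 log2FC values were above 0 and the median was 0.06, against 0.01 over all genes tested. The changes were small: PRSS23-AS1 and STEAP1B-AS1 alone also passed the study's limit of a log2FC above 1 in size (0.844% of the 237, against 1.46% of all genes tested). In 80 antisense genes (33.8%) the 3 libraries of one group did not overlap those of the other, against 33.2% of all genes. Their median mean count was 496, below 2351 for all genes at this level and 550 for lncRNA genes. Fewer counts give a test less precision, and the shares were not compared by a test. DESeq2 called 40 of the 237 (29 higher and 11 lower), all 25 among them, and 3939 of the 21045 genes. An edgeR fit with offsets for transcript length called 15 (10 higher and 5 lower) and 1883 of the 21045 genes, and 12 of the 15 were among the 25.

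**Figure D1:**
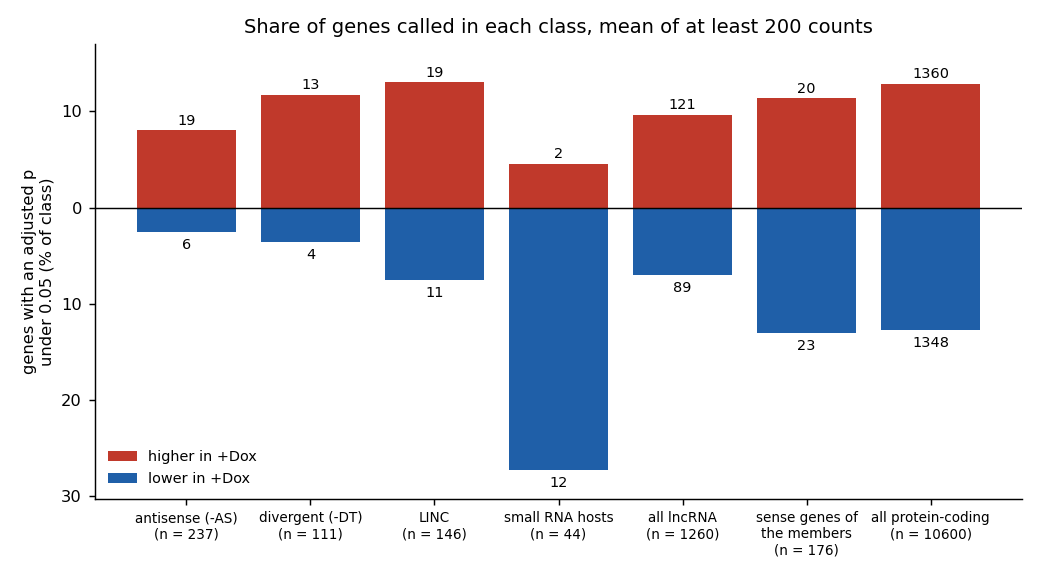
Percent of genes with an adjusted p under 0.05 (edgeR) in each class, higher in +Dox above the line and lower below it, with the number of genes at each bar; all genes have a mean of at least 200 counts. Antisense genes had 19 higher and 6 lower of 237, and small RNA host genes had 2 higher and 12 lower of 44.

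Other classes of lncRNA at the same level are shown beside them in the plot of shares by class. Divergent transcripts (-DT), which start beside a gene and run away from it, had 13 higher and 4 lower of 111 (15.3%, near the 16.7% of lncRNA genes at this level), with a median log2FC of 0.10. LINC genes, which lie between other genes, had 19 higher and 11 lower of 146 (20.5%, median 0.02). Host genes of small nucleolar RNAs and microRNAs (SNHG and MIR...HG) had 2 higher and 12 lower of 44 (31.8%, median −0.15). Of 2 overlapping (-OT) and 4 intronic (-IT) transcripts none passed the edgeR test, and all 4 intronic transcripts had a log2FC below 0 (median −0.18).

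STEAP1B-AS1 fell more than any other antisense gene of the 237. It lies inside STEAP1B on chromosome 7 (GRCh38, 22563337 to 22573996), a gene of the STEAP family, and has 1 annotated transcript. It was at 11.96, 11.45 and 11.51 CPM in −Dox and at 4.55, 4.43 and 4.80 CPM in +Dox. All 3 +Dox libraries were below all −Dox libraries, and the log2FC was −1.34 ± 0.088 (SE, adjusted p = 1.03e-06 by edgeR). STEAP1B fell as well, from 30.0 ± 1.04 to 19.6 ± 1.35 CPM (SD, n = 3, log2FC −0.61, adjusted p = 5.35e-05 by edgeR). Exons of STEAP1B lie over 37.6% of the exon bases of STEAP1B-AS1, so the counts of the 2 genes may not be separate. IL6, which encodes interleukin 6 and was named after its values were seen, starts 151888 bases beyond the end of STEAP1B-AS1. It was low, at 3.77, 3.58 and 2.93 CPM in −Dox, and fell by 2.20 on the log2 scale (adjusted p = 7.15e-06 by edgeR). IL6-AS1, at 0.40 to 0.96 CPM, did not pass (log2FC −0.81, adjusted p = 0.0778 by edgeR).

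PROSER2-AS1, KAZN-AS1, STXBP5-AS1, TRG-AS1 and DLGAP1-AS1 were the other antisense genes that fell. PROSER2-AS1 was at 20.2, 20.8 and 21.5 CPM in −Dox and 13.8, 15.2 and 15.3 CPM in +Dox (log2FC −0.50 ± 0.0675, SE, adjusted p = 0.000362 by edgeR). PROSER2 did not pass the test (log2FC −0.14, adjusted p = 0.677), and 0.947% of the antisense exon bases lie under it. Transcripts of PROSER2-AS1 with no exon under a gene of the other strand held 0% of its counts. KAZN-AS1, inside the gene of the cell-junction protein kazrin, went from 10.6 ± 0.354 to 7.68 ± 0.611 CPM (SD, n = 3, log2FC −0.47, adjusted p = 0.00334 by edgeR) and shares no exon base with KAZN (log2FC −0.24, adjusted p = 0.0893). TRG-AS1, from the locus of the T cell receptor gamma chain, was among the more abundant, at 57.6, 57.3 and 51.4 CPM in −Dox and 44.3, 44.2 and 43.3 CPM in +Dox. Its log2FC was −0.34 ± 0.056 (SE, adjusted p = 0.00154 by edgeR), and −0.20 (adjusted p = 0.127) with transcript length offsets. On its transcripts with no exon under a gene of the other strand, which held 73.4% of its counts, it was −0.17 (adjusted p = 0.394). DLGAP1-AS1 was at 4.15, 3.94 and 3.52 CPM in −Dox and 2.03, 2.18 and 3.19 CPM in +Dox (log2FC −0.65, adjusted p = 0.026 by edgeR). Its highest +Dox library, replicate 3, was close to the lowest −Dox library, with transcript length offsets the call was lost (log2FC −0.47, adjusted p = 0.242), and DLGAP1 itself was at 0.162 and 0.155 CPM.

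The largest increases were those of PRSS23-AS1 and LBX2-AS1. PRSS23-AS1, which lies inside the gene of the serine protease PRSS23, was at 1.714, 2.003 and 1.914 CPM in −Dox and 4.13, 3.78 and 3.88 CPM in +Dox. The groups did not overlap, and the log2FC was 1.07 ± 0.14 (SE, adjusted p = 0.00036 by edgeR). With offsets for transcript length it was 0.44 (adjusted p = 0.439). LBX2-AS1, head to head with the homeobox gene LBX2, was at 3.84, 4.11 and 4.12 CPM in −Dox and 8.30, 7.25 and 7.80 CPM in +Dox (log2FC 0.95 ± 0.10, SE, adjusted p = 7.29e-05 by edgeR). LBX2 was lower than its antisense gene, at 1.62 ± 0.281 and 2.05 ± 0.249 CPM (SD, n = 3, log2FC 0.34, adjusted p = 0.288 by edgeR). Exons of LBX2 lie over 25.6% of the antisense exon bases. The transcripts of LBX2-AS1 with no exon under any gene of the other strand held 10.3% of its counts and did not pass the test (log2FC 0.96 ± 1.09, SE, adjusted p = 0.629).

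NINJ2-AS1 and MAST4-AS1 rose while their sense genes did not pass the test. NINJ2-AS1, on the strand opposite to the gene of the adhesion protein ninjurin 2, went from 4.21 ± 0.136 to 6.71 ± 0.666 CPM (SD, n = 3, log2FC 0.67, adjusted p = 0.00147 by edgeR), and NINJ2 had a log2FC of 0.25 (adjusted p = 0.316). Its transcripts with no opposite exon held 6.31% of its counts and did not pass (log2FC 1.93, adjusted p = 0.0995). MAST4-AS1, inside the gene of a microtubule-associated kinase, went from 2.69 ± 0.259 to 4.25 ± 0.352 CPM (SD, n = 3, log2FC 0.66, adjusted p = 0.00629 by edgeR) and shares no exon base with MAST4 (log2FC 0.06, adjusted p = 0.743). ANXA2R-AS1 rose from 17.9 ± 1.20 to 22.8 ± 1.598 CPM (SD, n = 3, log2FC 0.35, adjusted p = 0.00635 by edgeR), with ANXA2R, a receptor for annexin A2, at 0.19 (adjusted p = 0.326). Another 9 that rose had larger p-values, with these log2FC values: SLC9A3-AS1 (0.58), TMEM9B-AS1 (0.71), CD63-AS1 (0.42), CLN8-AS1 (0.40), ASB16-AS1 (0.34), RAB33B-AS1 (0.43), MCPH1-AS1 (0.52), PIK3CD-AS2 (0.54) and C1RL-AS1 (0.50). Of these 9, CLN8-AS1 and ASB16-AS1 also passed with transcript length offsets.

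**Figure D2:**
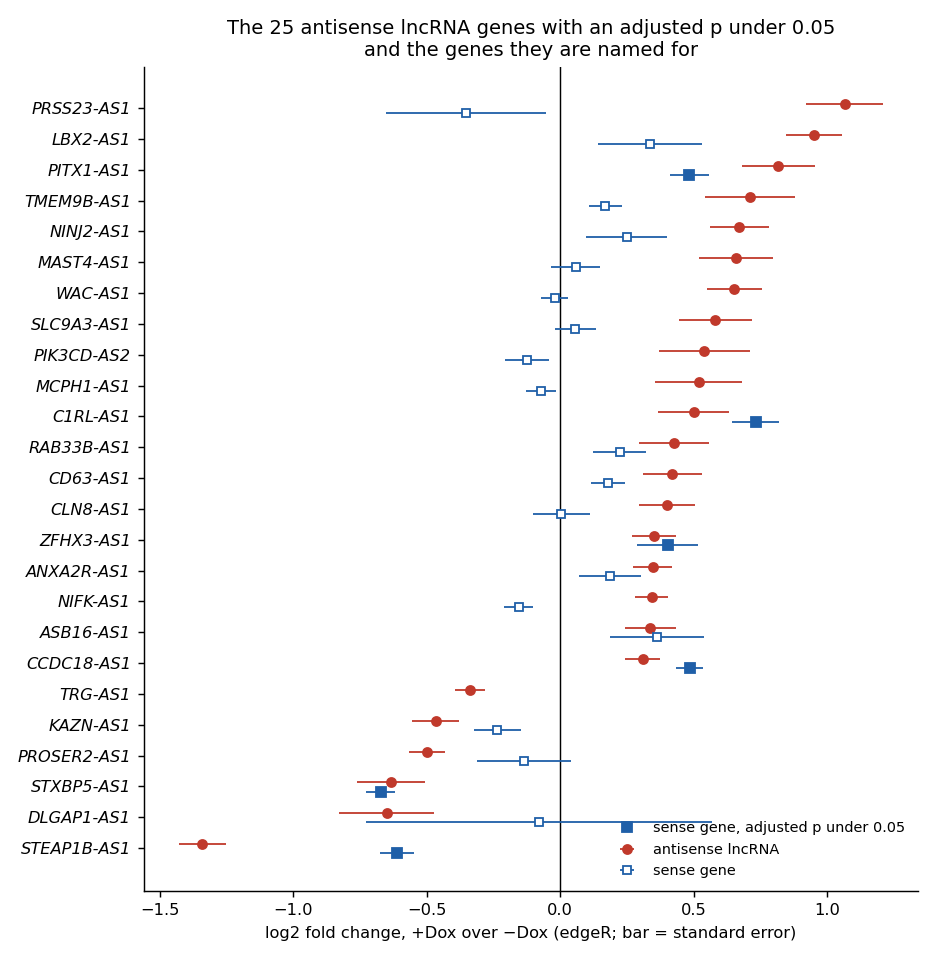
Log2 fold change, +Dox over −Dox, of the 25 antisense genes with an adjusted p under 0.05 (circles) and of their sense genes (squares, filled where the sense gene also passed), with standard errors. STEAP1B-AS1 lies lowest at −1.34 and PRSS23-AS1 highest at 1.07, and 6 sense genes are filled.

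The 14 of these 25 with the smallest p, from STEAP1B-AS1 to CCDC18-AS1, passed the edgeR test in all 6 fits that omit a library. The other 11 each missed it in at least 1 of these fits. The loss was of 8 genes if −Dox replicate 2 was omitted, 7 for +Dox replicate 1, 6 for +Dox replicate 2, 5 for +Dox replicate 3, 4 for −Dox replicate 1 and 3 for −Dox replicate 3. SLC9A3-AS1 missed it only if +Dox replicate 3 was omitted (adjusted p = 0.0599) and TMEM9B-AS1 only for +Dox replicate 2 (adjusted p = 0.0575). CD63-AS1 missed it for −Dox replicate 2, +Dox replicate 1 and +Dox replicate 2 (adjusted p up to 0.0993), and CLN8-AS1 for −Dox replicate 2, +Dox replicate 1 and +Dox replicate 3 (up to 0.0945). DLGAP1-AS1 (adjusted p up to 0.105) and ASB16-AS1 (up to 0.141) missed it for −Dox replicates 1 and 2 and +Dox replicates 1 and 2. The 3 with the largest p, RAB33B-AS1 (up to 0.175), MCPH1-AS1 (up to 0.165) and PIK3CD-AS2 (up to 0.199), each missed it in 4 or 5 of the 6 fits. The log2FC of these genes kept its sign in all 6 fits.

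Of the 219 sense genes, 46 (21.0%) had an adjusted p under 0.05 by edgeR, 22 higher and 24 lower, against 15.8% of all genes tested. With a mean of at least 200 in the sense gene too, 43 of 176 (24.4%) passed, against 24.4% of all genes at that level. A few are named here after their values were seen. GATA2, a transcription factor of blood stem and progenitor cells, fell by 0.36 on the log2 scale (adjusted p = 0.000866 by edgeR) with GATA2-AS1 at 0.15 (adjusted p = 0.185). ICAM4, the Landsteiner-Wiener red cell antigen, rose by 0.64 (adjusted p = 2.54e-05) with ICAM4-AS1 at 0.19 (adjusted p = 0.475). GP6, the platelet collagen receptor, fell by 0.75 (adjusted p = 0.000186) with GP6-AS1 at −0.27 (adjusted p = 0.255), and SOCS2, an inhibitor of cytokine signalling, fell by 0.48 (adjusted p = 6.10e-05) with SOCS2-AS1 at −0.15 (adjusted p = 0.411). Of the 46 sense genes, 40 had an antisense gene that did not pass.

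Both genes passed in 6 of the 24 pairs whose antisense gene passed, while 21.0% of all 219 sense genes passed. Whether 6 is more than these shares would give was not tested. Both genes moved in the same direction in all 6. By DESeq2 both passed in 12 pairs, of which 10 moved in the same direction, with NIFK-AS1 and ELOA-AS1 opposite to their sense genes. With transcript length offsets both passed in 2 pairs, STEAP1B and STXBP5, and on antisense transcripts with no exon under a gene of the other strand in 2 of 125, STXBP5 and CCDC18, in the same direction in each. STXBP5, which encodes the exocytosis regulator tomosyn-1, fell in +Dox from 292, 268 and 278 CPM to 162, 182 and 182 CPM (log2FC −0.67, adjusted p = 6.90e-06 by edgeR). STXBP5-AS1 was at 11.1, 8.54 and 10.8 CPM in −Dox and 5.43, 6.81 and 7.29 CPM in +Dox, again with no overlap (log2FC −0.64 ± 0.13, SE, adjusted p = 0.00459 by edgeR). The difference between the 2 changes was 0.04 ± 0.13 on the log2 scale (SE, adjusted p = 0.894 by limma). STXBP5-AS1 shares 1.48% of its exon bases with STXBP5 exons, and its transcripts with no exon under another gene, with 92.0% of its counts, also fell (log2FC −0.63, adjusted p = 0.0103).

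PITX1, a homeobox transcription factor, rose from 47.5, 59.6 and 54.3 CPM to 78.9, 71.3 and 75.4 CPM (log2FC 0.48, adjusted p = 0.000829 by edgeR). PITX1-AS1 was at 4.23, 4.63 and 3.35 CPM in −Dox and 6.17, 7.63 and 7.72 CPM in +Dox, with no overlap (log2FC 0.82 ± 0.14, SE, adjusted p = 0.00159 by edgeR). No exon base is shared with PITX1, but 70.8% of the antisense exon bases lie under exons of some gene of the other strand, and with transcript length offsets the call was lost (log2FC 0.69, adjusted p = 0.115). PITX1-AS1 transcripts with no opposite exon held 2.72% of its counts and did not pass (log2FC 0.996, adjusted p = 0.359). CCDC18 rose from 43.9 ± 1.099 to 61.5 ± 1.19 CPM (SD, n = 3, log2FC 0.48, adjusted p = 4.13e-05 by edgeR) and CCDC18-AS1 from 18.3 ± 1.14 to 22.7 ± 0.597 CPM (SD, n = 3, log2FC 0.31, adjusted p = 0.00636 by edgeR). CCDC18-AS1 also lost its call with transcript length offsets (log2FC 0.36, adjusted p = 0.278).

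In the remaining pairs the antisense call was lost if certain libraries were omitted. ZFHX3-AS1 rose by 0.35 and ZFHX3, a zinc finger homeobox factor, by 0.40 on the log2 scale (adjusted p = 0.0104 and 0.031 by edgeR). If −Dox replicate 2 was omitted, the values were 0.31 (adjusted p = 0.0521) and 0.34 (adjusted p = 0.123). ZFHX3 also missed the test if −Dox replicate 3 was omitted (adjusted p = 0.0936), or +Dox replicate 1, 2 or 3 (adjusted p = 0.108, 0.0632 and 0.0617). With transcript length offsets neither passed, with ZFHX3-AS1 at 0.33 (adjusted p = 0.145) and ZFHX3 at 0.30 (adjusted p = 0.27), and ZFHX3-AS1 transcripts with no opposite exon were at 0.18 (adjusted p = 0.736). C1RL, a serine protease related to complement C1r, rose from 5.97 ± 0.155 to 9.92 ± 0.466 CPM (SD, n = 3, log2FC 0.73, adjusted p = 0.000156 by edgeR), and C1RL-AS1 from 3.84 ± 0.408 to 5.43 ± 0.715 CPM (SD, n = 3, log2FC 0.50, adjusted p = 0.0232). C1RL-AS1 missed the test without −Dox replicate 2 (adjusted p = 0.0977) or +Dox replicate 2 (adjusted p = 0.103). With transcript length offsets neither passed, with C1RL at 0.41 (adjusted p = 0.114) and C1RL-AS1 at 0.60 (adjusted p = 0.0512).

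**Figure D3:**
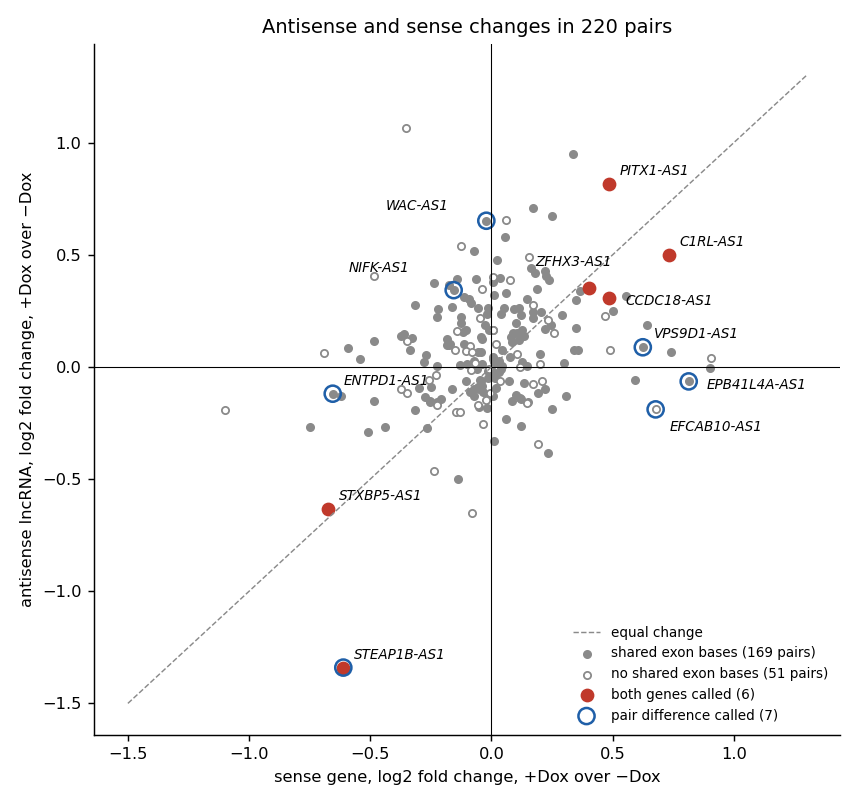
Log2 fold change of the sense gene (x) and of its antisense lncRNA (y) in 220 pairs, filled where exon bases are shared (169 pairs) and open where none are (51 pairs). The 6 red pairs passed the test in both genes and lie in the lower left or upper right, and the 7 circled pairs had a difference between the changes.

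Over the 220 pairs the changes of the antisense and sense genes had Pearson's r = 0.27 and Spearman's rho = 0.25 across pairs measured in the same 6 libraries. The sign was the same in 128 pairs (58.2%) and, of the 24 antisense genes that changed and had a sense gene tested, in 19. Without STEAP1B-AS1 r was 0.24, and in the 176 pairs whose sense gene also had a mean of at least 200 it was 0.41. In the 98 pairs that overlapped head to head r was 0.45, in 22 with the sense gene inside the antisense gene 0.31, in 47 tail-to-tail pairs 0.20, in 37 with the antisense gene inside the sense gene 0.16 and in 16 head to head but apart −0.15. Spearman's rho for these arrangements, in the same order, was 0.41, 0.14, 0.18, 0.14 and −0.11. Pairs with shared exon bases gave r = 0.34 (rho = 0.28, n = 169) and those without r = 0.10 (rho = 0.15, n = 51). Counted over antisense transcripts with no exon under another gene, r was 0.08 (n = 125). With starts within 1000 bases of each other r was 0.30 (n = 68), and beyond that 0.26 (n = 152). How far reads from shared bases enter these values was not tested. The median distance between the annotated starts was 8166 bases, and per length the antisense gene was the more abundant in 91 of the 220 pairs.

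A test of the difference itself was made on the log2 ratio of antisense to sense CPM with limma. It passed in 7 of 220 pairs (3.18%), against 1.49% of all 672 pairs of any level, 3 with the antisense gene higher relative to the sense gene in +Dox and 4 with it lower. WAC-AS1 was at 7.79, 8.86 and 7.92 CPM in −Dox and 14.23, 10.96 and 13.44 CPM in +Dox, with no overlap (log2FC 0.65 ± 0.10, SE, adjusted p = 0.00109 by edgeR). WAC is an adaptor of histone H2B ubiquitination, and its window printed above overlaps that of WAC-AS1 by 76 bases. WAC was at 215, 220 and 208 CPM in −Dox and 206, 204 and 224 CPM in +Dox, so the groups overlapped (log2FC −0.02, adjusted p = 0.833 by edgeR). The ratio rose by 0.67 ± 0.13 on the log2 scale (SE, adjusted p = 0.0415 by limma). In the WAC-AS1 transcripts with no exon under a gene of the other strand, which held 20.5% of its counts, the log2FC was 0.25 (adjusted p = 0.423).

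NIFK-AS1 rose from 16.3, 17.4 and 17.5 CPM to 22.0, 21.9 and 21.1 CPM (log2FC 0.34 ± 0.062, SE, adjusted p = 0.00252 by edgeR), with 96.3% of its counts on transcripts free of opposite exons. NIFK, a nucleolar partner of the Ki-67 protein, was at 135, 151 and 143 CPM in −Dox and 123, 127 and 135 CPM in +Dox (log2FC −0.16, adjusted p = 0.0698), with the highest +Dox library just below the lowest −Dox library. By DESeq2 NIFK fell (log2FC −0.16, adjusted p = 0.0234). The ratio rose by 0.50 ± 0.10 (SE, adjusted p = 0.0457 by limma). In ENTPD1-AS1 the ratio rose by 0.54 (adjusted p = 0.0347 by limma). ENTPD1, the ectonucleotidase CD39, fell from 27.1 ± 1.38 to 17.2 ± 1.297 CPM (SD, n = 3), with the antisense gene at 28.6 ± 1.88 and 26.4 ± 0.258 CPM. Transcripts of ENTPD1-AS1 with no opposite exon held 4.51% of its counts, and on them the difference did not pass.

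In the other 4 pairs the ratio fell. EPB41L4A-AS1, a host of a small nucleolar RNA, was at 32.5, 33.2 and 32.4 CPM in −Dox and 33.4, 31.2 and 29.2 CPM in +Dox (log2FC −0.06, adjusted p = 0.538 by edgeR). EPB41L4A, of the band 4.1 family of cytoskeletal proteins, rose from 1.29, 1.19 and 1.43 CPM to 2.62, 2.23 and 2.03 CPM (log2FC 0.81, adjusted p = 0.0101), and the ratio fell by 0.87 ± 0.11 (SE, adjusted p = 0.00532 by limma). EPB41L4A missed its own test without +Dox replicate 1 (log2FC 0.71, adjusted p = 0.0536) and with transcript length offsets (0.75, adjusted p = 0.308), and 51.2% of the antisense exon bases lie under its exons. EFCAB10 rose from 2.51 ± 0.0717 to 4.01 ± 0.183 CPM (SD, n = 3, log2FC 0.68) with EFCAB10-AS1 at −0.19. VPS9D1 rose from 2.99 ± 0.193 to 4.61 ± 0.124 CPM (SD, n = 3, log2FC 0.62) with VPS9D1-AS1 at 0.09. Transcripts with no opposite exon held 100% of the counts of EFCAB10-AS1 and 0% of those of VPS9D1-AS1. The ratio of STEAP1B-AS1 to STEAP1B fell by 0.72 ± 0.12 (SE, adjusted p = 0.0212 by limma).

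Of these 7 differences, that of EPB41L4A-AS1 alone passed in all 6 fits that omit a library. Over all 14 alternatives run for it, its value ranged from −0.94 to −0.46 on the log2 scale, and it passed in 10. The other 6 missed the test without any one of the 6 libraries, and 1 to 2 pairs passed in such fits. The same ratio without a variance trend, from TPM or as an interaction term in edgeR gave 0 of 220 pairs, with 32, 35 and 39 pairs at an unadjusted p under 0.05 against 55 for the limma test above.

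**Figure D4:**
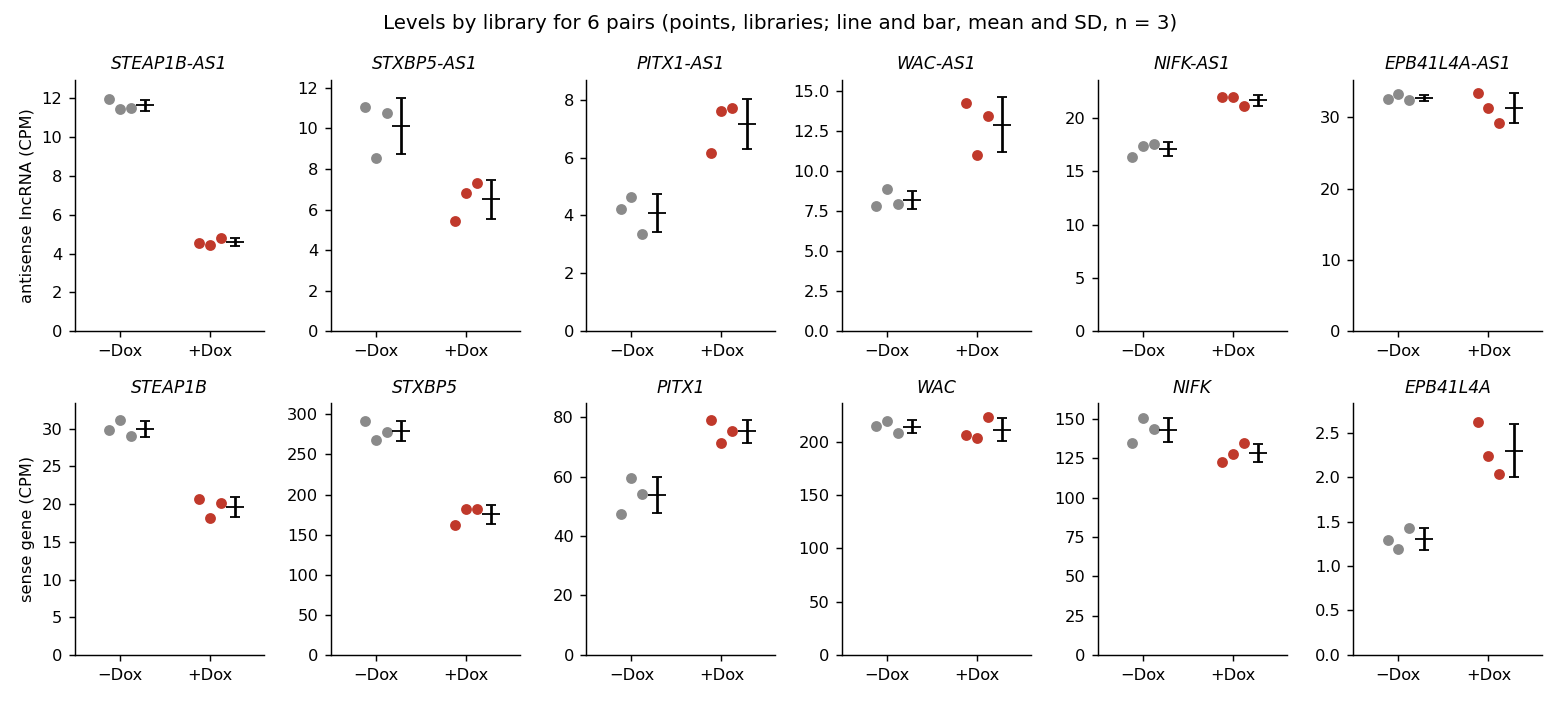
CPM in each library (points) with the mean and SD (n = 3) for 6 antisense genes (upper row) and their sense genes (lower row), each axis from 0. STEAP1B-AS1 and STXBP5-AS1 are lower in +Dox together with their sense genes, PITX1-AS1 is higher together with PITX1, and WAC-AS1 and NIFK-AS1 are higher beside sense genes that did not pass the edgeR test.

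The 6 antisense genes with the highest CPM did not pass the edgeR test, and 3 of them passed by DESeq2. OIP5-AS1, a nuclear and cytoplasmic lncRNA known to bind the RNA-binding protein HuR, was at 199, 195 and 185 CPM in −Dox and 209, 214 and 214 CPM in +Dox (log2FC 0.14 ± 0.045, SE, adjusted p = 0.0614 by edgeR). FGD5-AS1 was at 192, 194 and 191 CPM and 202, 220 and 213 CPM (log2FC 0.14, adjusted p = 0.0579). Both had every +Dox library above every −Dox library. By DESeq2 the adjusted p was 0.0359 for OIP5-AS1, 0.0326 for FGD5-AS1 and 0.0392 for B3GALT1-AS1. With transcript length offsets it was 0.0263 for OIP5-AS1 and 0.285 for FGD5-AS1. NUTM2A-AS1 (log2FC −0.13), B3GALT1-AS1 (−0.16), RAB4A-AS1 (0.00043) and THAP9-AS1 (0.0054) had the next highest CPM, and the sign for RAB4A-AS1 and THAP9-AS1 turned under other size factors. Together the 237 genes held 0.303% to 0.331% of the counts of a library. Their summed CPM was 3206, 3112 and 3093 in −Dox and 3194, 3219 and 3174 in +Dox.

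BCAN-AS1 and BCAN-AS2, which share the gene of the matrix protein brevican, had log2FC values of 0.40 (adjusted p = 0.0714) and 0.12 (adjusted p = 0.595). Just inside the limit of 200, RNF32-AS1 and P3H2-AS1 averaged 202.7 and 202.9 counts, with log2FC values of 0.26 and 0.02. Just outside, TMEM202-AS1 and AP1G2-AS1 averaged 199.6 and 198.1 counts, with −0.02 each. Of the genes left out by name, DLGAP1-AS2 went from 40.3 ± 2.27 to 11.8 ± 0.881 CPM and BHLHE40-AS1 from 2.10 ± 0.303 to 0.864 ± 0.108 CPM (SD, n = 3), and PCBP1-AS1 did not pass (log2FC −0.11, adjusted p = 0.331 by edgeR).

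The machinery that breaks down nuclear RNA and that handles double-stranded RNA acts on many antisense transcripts, and its genes were listed for that reason. Of 20 genes of nuclear RNA turnover 6 fell and none rose (30.0%, against 11.99% of all genes with a mean of at least 200 that fell and 24.4% that changed in either direction), with a median log2FC of −0.07. They were the exosome subunits EXOSC3 (−0.27, adjusted p = 0.00485), EXOSC7 (−0.26, adjusted p = 0.00621), EXOSC4 (−0.27, adjusted p = 0.0454) and EXOSC6 (−0.19, adjusted p = 0.0463), the exosome nuclease DIS3 (−0.24, adjusted p = 0.00709) and the cofactor MPHOSPH6 (−0.21, adjusted p = 0.0186), all by edgeR. The other exosome genes listed did not pass: EXOSC9 (0.10), EXOSC2 (−0.10), EXOSC10 (−0.07), EXOSC5 (−0.07), EXOSC8 (−0.03) and EXOSC1 (0.005). The nuclear helicase MTREX (−0.06) and its partners ZCCHC8 (−0.08), RBM7 (−0.02) and ZFC3H1 (−0.06) did not pass. Of 22 genes that bind or edit double-stranded RNA 2 rose and 1 fell (13.6%, with a median of −0.04). The share was 15.8% of all genes tested and 24.4% of those with a mean of at least 200. STAU2 rose by 0.16 (adjusted p = 0.0345) and DHX58, a regulator of the RIG-I sensors, by 0.86 from 0.581 CPM (adjusted p = 0.0348), and STRBP fell by 0.17 (adjusted p = 0.0212). The editing enzyme ADAR (−0.07, adjusted p = 0.347) and DICER1 (−0.08, adjusted p = 0.413) did not pass.

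The sequences of the antisense RNAs were also read for cytosine, the base that PCBP1 prefers. In the most abundant annotated transcript of each gene the median share of cytosine was 24.1% in the 19 that rose, 23.3% in the 6 that fell and 24.3% in the 212 others. The letters CCCNCCC were in 12 of 19, 3 of 6 and 123 of 212 (58.0%) of these transcripts. A gene had a median of 6 annotated transcripts, and the leading one held a median of 58.8% of its TPM. Only 8.35% of a gene's counts (median) lay on transcripts with no exon under a gene of the other strand, and 85 of the 237 had none.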

How the data were processed

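The authors deposited, for each of 6 libraries of polyA RNA (paired end, 150 cycles), Salmon 1.10.2 estimated counts and TPM values for each transcript, 1 file a library. Which index, strand setting and bias correction were used is not given in the sources used here. The build named is hg38. Of 252045 transcript names, 251142 matched GENCODE 44 with their version, 251612 without it, and 433 did not match. The authors' counts were summed per gene and rounded.

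For the gene test, edgeR 4.0.16 was run on genes whose mean count exceeded 10 (TMM, quasi-likelihood, Benjamini-Hochberg over 21045 genes) in R 4.3.3. Pair differences were tested with limma 3.58.1 on the log2 ratio of CPM (prior count 2, variance trend, adjusted over 672 pairs). DESeq2 1.42.0 and other size factors, filters, length offsets and transcript sets were alternatives, and each library was left out in turn. Both tests were checked on simulated data with a log2 change of 1 set in some features. The edgeR test recovered 173 of 200 changed genes (86.5%), with 16 false calls. The limma test recovered 99 of 192 changed pairs (51.6%), with 2 false calls, so it can miss such differences. The genes named are the 10 antisense genes with the smallest p in each direction, the 6 most abundant, up to 8 pairs by the pair test, up to 3 pairs in each direction where both genes passed, the 2 on each side of the level limit, those that share a sense gene, up to 4 of each list by p, and the sense genes of all these. Others were named after their values were seen, as were list genes given for contrast. The genes, lists and tests were chosen with earlier results of these data known. The main fits did not pair samples by replicate number. Between libraries of the same number, the correlations of deviations from the group means were −0.0552, −0.368 and −0.152. Between libraries of unlike number they ran from −0.193 to 0.37. Deviations within a group of 3 sum to 0, so these values cannot decide whether samples were paired. Chi-square per gene between libraries of a group was 8.16 to 17.5, above sampling noise.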

Additional observations from a re-analysis of the deposited data

How the results depend on the processing

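Counts of antisense genes that passed stayed within 1.5 times 25 in most alternatives and lay between 17 and 28 if a library was omitted. DESeq2 gave 40, offsets for transcript length 15 and a level limit of 500 counts 12 of 118, while RLE size factors gave 25 (18 higher and 7 lower). Sense genes numbered 31 to 49 if a library was omitted and 30 with length offsets, of which 8 were higher, against 22 of 46. Pair differences fell from 7 of 220 to between 1 and 2 if a library was omitted. They fell to 0 from TPM, as an edgeR interaction, without a variance trend, and with the replicate number as a block. On transcripts with no opposite exon 4 of 125 pairs passed. With both genes at a mean of at least 200 it was 11 of 176, and with a prior count of 5 it was 11 of 220. With the replicate block 22 antisense and 37 sense genes passed. Over the named antisense genes 340 log2 fold changes kept both direction and side of the limit, 60 lost and 8 gained a call, and 19 changed sign, in RAB4A-AS1 and THAP9-AS1. RAB4A-AS1 went to −0.0075 (DESeq2), −0.0075 (RLE), −0.0021 (all genes), −0.0057 (10 counts in every library), −0.0074 (summed count) and −0.036 (length offsets), and ranged from −0.027 to 0.044 if a library was omitted. THAP9-AS1 went to −0.0025, −0.0026 and −0.00086 (DESeq2, RLE and 10 counts in every library), −0.0025 (summed count), −0.032 (length offsets), −0.086 (no opposite exon) and ranged from −0.031 to 0.046 if a library was omitted. WAC ranged from −0.064 to 0.0041 (without +Dox replicate 2). The causes were not tested. Antisense genes just above the limit had about 200 counts per library, so that small changes in them could not be told from the spread between libraries.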

Other observations

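Antisense lncRNAs below the level limit were tested in the same fit. Of 520 such genes tested, 15 passed by edgeR (2.88%, against 4.27% of all genes tested with a mean under 200, 11 higher and 4 lower), 10 of them with a log2FC (log2 fold change) above 1 in size, counting BHLHE40-AS1 among them. STPG3-AS1 had the smallest p, rising from 0.878 to 2.91 CPM (log2FC 1.72, adjusted p = 5.94e-05). MSRB3-AS1 fell from 1.44 to 0.515 CPM (log2FC −1.48, adjusted p = 0.00196) and TDH-AS1 rose from 1.33 to 3.11 CPM (log2FC 1.22, adjusted p = 0.0022). HM13-AS1, with 3 to 28 counts a library, rose by 2.14 on the log2 scale (adjusted p = 0.0254), which rests on few counts. These genes were named after their values were seen.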
